A study of Mus musculus with 9 samples.

Results

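The genes described here encode the integrins, the laminins and the proteins that link laminin to the rest of the basement membrane. They were chosen by symbol, as every gene of the table named as an integrin alpha chain (18 genes), an integrin beta chain (8), a laminin chain or a nidogen (2), together with the proteoglycans perlecan (Hspg2) and agrin (Agrn). These are 41 of the 21873 genes listed. The 40 described here, 10 of them laminin chains, are the members counted below. Liver RNA of 9 male C57BL/6 mice, 8 weeks old at the start and with no engineered allele described, had been sequenced, with 3 mice per group. The control group received intraperitoneal saline for 8 weeks, and the TAA group received intraperitoneal thioacetamide, a hepatotoxin that gives liver fibrosis, for 8 weeks. The recovery group received the same 8 weeks of thioacetamide and was then left without injections for another 8 weeks. Recovery mice were thus 8 weeks older at collection, and no control of that age was analysed here, so age and recovery cannot be told apart where the recovery group is set against the other groups.

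Basement membranes are thin sheets of matrix under epithelia and around vessels, muscle and nerve. Laminins, each a trimer of 1 alpha, 1 beta and 1 gamma chain, form a network at the cell surface, and nidogens, perlecan and agrin tie this network to collagen IV and to receptors. Integrins are pairs of 1 alpha and 1 beta chain that span the cell membrane and bind matrix or other cells. Liver sinusoids are known for lacking a continuous basement membrane, and its formation along them is a classical feature of fibrosis. Leukocytes carry a set of integrins of their own, and some integrins that contain the alphav chain release active TGF-beta from its latent complex.

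Expression is given as scaled FPKM, that is, fragments per length of gene and per depth (FPKM), divided by 1 factor per library, so levels can be compared between genes. A gene was tested when its mean FPKM over the 9 libraries was at least 0.1, which high values in the TAA mice alone could meet. Of the 40 members, 39 passed. Itgad, an alpha chain of myeloid cells, did not: it was listed at 0 in the 3 control mice and reached at most 0.0395 scaled FPKM in the others. Groups were compared with limma on log2(scaled FPKM + 0.1) with Benjamini-Hochberg adjustment over 14094 genes, and a DEG had an adjusted p under 0.05 and changed by 2-fold or more. Because of the added 0.1, fold changes understate those of genes at low FPKM. The libraries held an estimated 27.1 to 40.9 M fragments each. On the log2 scale, the mean factor of TAA minus control libraries was 0.64 and that of recovery minus TAA libraries -0.56, amounts that the division takes off each fold change. Hepatocyte markers identified the tissue as liver, with a summed 34700 to 38800 scaled FPKM in control, 21000 to 27900 in TAA and 43500 to 46500 in recovery mice. Library TAA 3 stood apart in skeletal muscle markers, with 19.8 scaled FPKM of Acta1 against at most 0.0677 in the other 8 libraries. Control 1 had the lowest depth. Its Clec4g, an endothelial marker, was at 18.0, against 36.8 and 35.0 in the other control mice. Its Cd5l, a macrophage marker, was at 13.6, against 50.5 and 51.2. The macrophage markers Adgre1 and Cd68 were instead highest in control 1 among the control mice. Because whole liver was sequenced, fewer cells of a type and less RNA per cell cannot be told apart.

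In the TAA group, 23 of the 39 tested members were higher than in the control group and 1 was lower, where 17.0% and 8.02% of all tested genes were called in these directions. The median log2 fold change of the members was 1.12, against 0.02 over all tested genes. Quantile normalization gave 17 higher and 5 lower, and 13 were higher with a pseudocount of 1 in place of 0.1 and 12 when limma tested for more than 2-fold (treat). With FPKM as deposited, 29 were higher and 1 was lower. Without TAA 3, 21 were higher and 1 was lower, and the calls lost were those of Itgam and Lamc3. Rises were counted in 7 of 10 laminin chains, both nidogens, both proteoglycans, 9 of 17 integrin alpha chains and 3 of 8 integrin beta chains. Among these, Itga11, Itgae and Itgb6 passed the filter on mean FPKM only or largely through the TAA mice. The only fall was that of the laminin chain Lamb3.

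After recovery, 17 members were lower than in the TAA group and 1, again Lamb3, was higher, where 14.3% and 7.12% of all tested genes were called in these directions. The members' median log2 fold change was -0.80, against -0.01 over all tested genes. Quantile normalization gave 16 lower and 4 higher, and 27 were lower with FPKM as deposited, 10 with a pseudocount of 1 and 8 with treat. Without TAA 3, 16 were lower and 1 was higher, and the call lost was that of Itga11. Itga11 and Itgb6, counted among the 17, passed the filter only or largely through the TAA mice. The comparisons share the TAA mice. All 17 members that were lower after recovery were among the 23 that were higher in the TAA group, and the other 6 were Hspg2, Itga2, Itgae, Lama1, Lamc3 and Nid2. Against the control group, 1 member was higher in the recovery group and 0 were lower, where 0.582% and 0.412% of all tested genes were called. An unadjusted p under 0.05 in that comparison was found by limma for 10 of the 39 members on the higher side and 2 on the lower, where 11.3% and 11.7% of all tested genes had one.

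**Figure D1:**
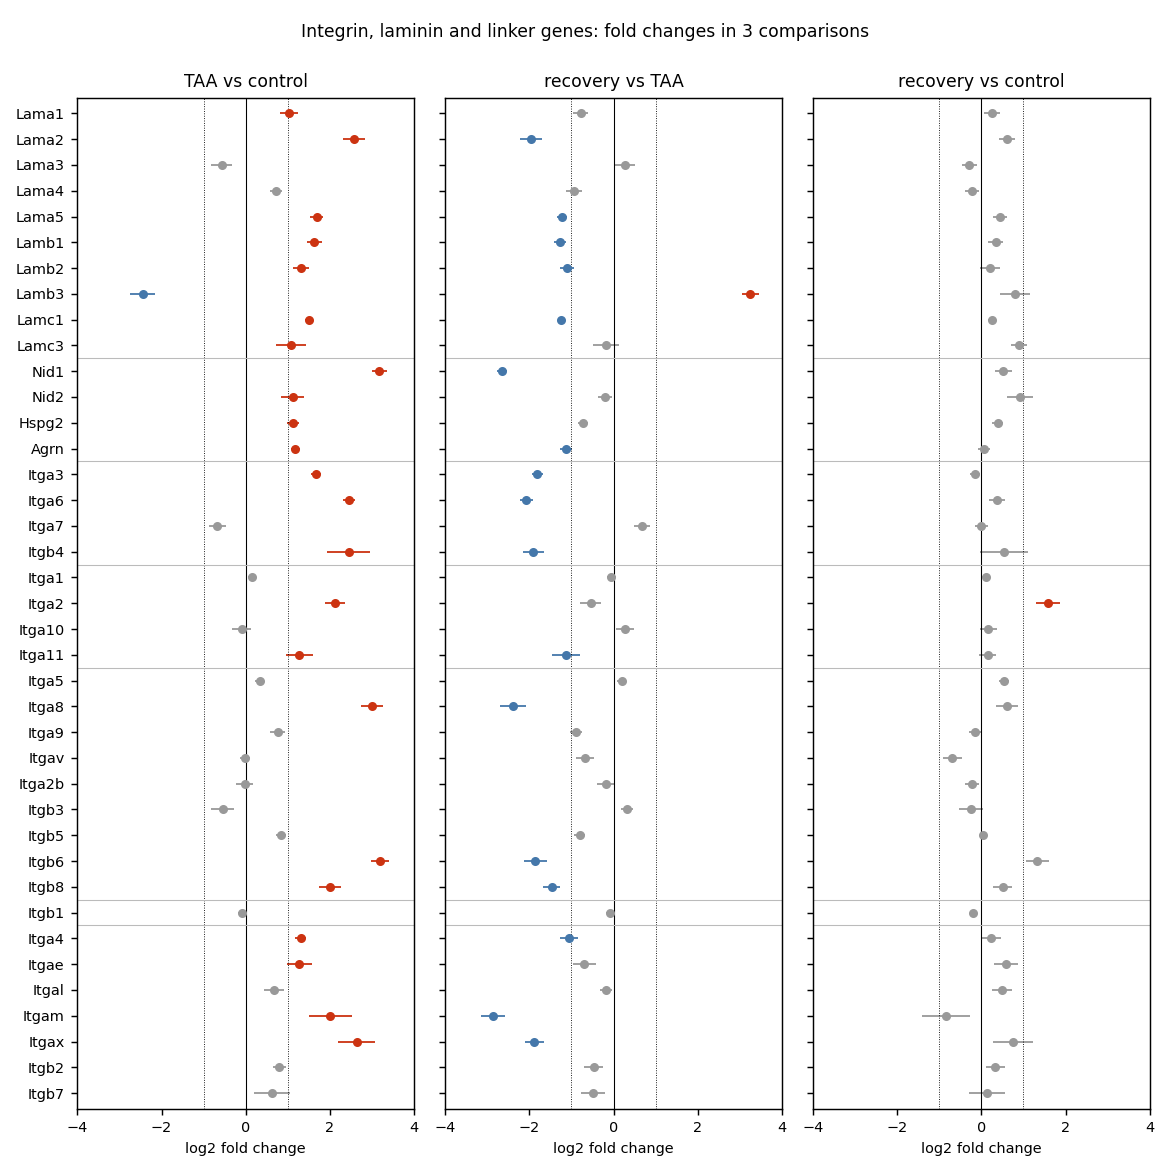
Log2 fold change (x axis, points) with its standard error (bars) of the 39 tested members, grouped by role, in each of the 3 comparisons; red points are DEGs that were higher, blue points DEGs that were lower and grey points genes not called, and dotted lines mark a fold change of 2. The 23 red points of the first panel are on the right of its dotted line, 17 blue points return to the left in the second, and the third has 1 red point, Itga2.

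Nid1 encodes nidogen-1, a glycoprotein that binds the laminin gamma1 arm and collagen IV. Its control values were 2.72, 4.25 and 4.26 scaled FPKM, its TAA values 31.0, 36.6 and 33.8, and its recovery values 4.78, 5.28 and 5.86. All 3 TAA mice lay far above the other 6, and the recovery mice lay above the control mice without overlap. The log2 fold change was 3.17 ± 0.18 (SE, adjusted p = 1.37e-05) in the TAA group and -2.65 ± 0.11 (adjusted p = 5.22e-06) from the TAA to the recovery group. Recovery mice differed from control mice by 0.52 ± 0.20 on the log2 scale (adjusted p = 0.183). Nid1 was the third highest member in the TAA group, at 33.8 ± 2.79 (SD, n = 3), after Itgb1 and Itgb5.

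Nid2, the other nidogen, stood at 1.17, 2.71 and 1.57 scaled FPKM in control, 3.61, 3.50 and 4.38 in TAA and 3.18, 2.77 and 4.10 in recovery mice. The TAA and recovery ranges overlapped and both lay above the control range. Nid2 rose in the TAA group by 1.11 ± 0.28 on the log2 scale (adjusted p = 0.0115), although without control 1 the value was 0.86 and under the fold threshold. It was also under that threshold with quantile normalization (0.91) and with a pseudocount of 1 (0.81). From TAA to recovery its log2 fold change was -0.20 ± 0.17 (adjusted p = 0.357). Of the TAA difference of Nid2, 76.2% was left after recovery, against 5.21% for Nid1.

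Perlecan (Hspg2) and agrin (Agrn) carry heparan sulfate chains and bind laminin. Agrn measured 5.05, 5.26 and 5.37 scaled FPKM in control, 13.1, 11.3 and 11.7 in TAA and 6.64, 4.94 and 4.94 in recovery mice. Only the TAA mice stood out. It rose with a log2 fold change of 1.18 ± 0.10 (adjusted p = 6.24e-05) and fell after recovery by 1.12 ± 0.14 (adjusted p = 4.22e-04). For Hspg2 the values were 4.48, 5.68 and 5.82 in control, 12.6, 9.93 and 12.5 in TAA and 7.55, 6.68 and 6.76 in recovery mice. Its 3 groups did not overlap. Hspg2 rose by 1.12 ± 0.15 (adjusted p = 5.32e-04), and its difference from TAA to recovery, -0.73 ± 0.12 (adjusted p = 0.00189), was under the fold threshold. With FPKM as deposited the latter was -1.28 (adjusted p = 1.01e-04) and passed.

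Among the laminin alpha chains, Lama2, the alpha chain of the laminins of muscle and nerve, had the largest fold change. Its control values were 0.590, 0.505 and 0.759 scaled FPKM, its TAA values 4.11, 2.86 and 5.85 and its recovery values 0.867, 1.07 and 1.01. No group overlapped another. Lama2 rose by 2.57 ± 0.27 on the log2 scale (adjusted p = 1.87e-04), or 2.31 without TAA 3, the library with muscle transcripts. It fell after recovery by 1.96 ± 0.25 (adjusted p = 4.52e-04), or 1.71 without TAA 3.

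Lama5, the alpha chain of many epithelial and vascular basement membranes, was 0.864, 0.984 and 1.26 scaled FPKM in control, 3.37, 3.48 and 3.65 in TAA and 1.45, 1.44 and 1.40 in recovery mice. Recovery mice lay between the other groups without overlap. Its log2 fold change was 1.68 ± 0.16 (adjusted p = 1.27e-04) in the TAA group and -1.23 ± 0.12 (adjusted p = 1.22e-04) after recovery. Lama1, which is abundant in embryonic basement membranes, rose by 1.03 ± 0.21 (adjusted p = 0.00458), close to the fold threshold, and the call was lost without control 1 (0.91) or TAA 2 (0.93) and under quantile normalization (0.43, adjusted p = 0.141). Lama4, an alpha chain of vessel walls, had TAA values of 3.94, 2.81 and 3.09 above control values of 1.92, 1.92 and 1.98, but its difference of 0.72 ± 0.15 (adjusted p = 0.00542) was under the fold threshold. With FPKM as deposited that difference was 1.33 (adjusted p = 1.87e-04) and passed. Lama3, an alpha chain of epithelial laminins, was at 0.573, 0.435 and 0.628 in control and 0.373, 0.225 and 0.427 in TAA mice, a difference of -0.57 ± 0.25 (adjusted p = 0.0912) that did not pass the test. Under quantile normalization Lama3 was called lower in the TAA group (-1.45, adjusted p = 0.0014) and higher after recovery (1.03, adjusted p = 0.00688), while with FPKM as deposited these values were -0.05 and -0.17 (adjusted p = 0.869 and 0.576).

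Lamb1, Lamb2 and Lamc1, the widespread beta and gamma chains, rose together in the TAA group. For Lamc1 the values were 3.82, 4.40 and 4.41 scaled FPKM in control, 11.6, 12.2 and 12.3 in TAA and 4.93, 4.89 and 5.31 in recovery mice. The TAA mice were close to each other and lay above all others. Its log2 fold change was 1.5 ± 0.10 (adjusted p = 2.61e-05), and -1.24 ± 0.09 (adjusted p = 4.02e-05) after recovery. Lamb1 went from 2.21 ± 0.405 (SD, n = 3) in control to 6.99 ± 1.01 in TAA and 2.8 ± 0.266 in recovery mice. Lamb2 went from 2.2 ± 0.584 to 5.5 ± 0.513 and 2.52 ± 0.534. Both rose (log2 fold changes of 1.63 and 1.31, adjusted p = 2.16e-04 and 0.00101) and both fell after recovery (-1.28 and -1.11, adjusted p = 2.52e-04 and 0.0011), the fall of Lamb2 reaching 0.96 without recovery 1.

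Lamc3, a gamma chain of more restricted distribution, was at 1.03, 1.24 and 1.70 in control, 4.86, 1.78 and 2.62 in TAA and 2.42, 2.55 and 2.52 in recovery mice. TAA 1 was far above the other TAA mice, and the recovery mice lay within the TAA range. Its rise of 1.07 ± 0.35 (adjusted p = 0.034) was lost when any of control 1, control 2, TAA 1 or TAA 3 was left out (adjusted p = 0.0933, 0.0819, 0.077 and 0.0788), and with no filter on low values (0.0718). Quantile normalization gave 0.74 (adjusted p = 0.15) and a pseudocount of 1 gave 0.76, neither of them a call. Over all alternatives the log2 fold change of Lamc3 ranged from 0.70 to 1.68.

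**Figure D2:**
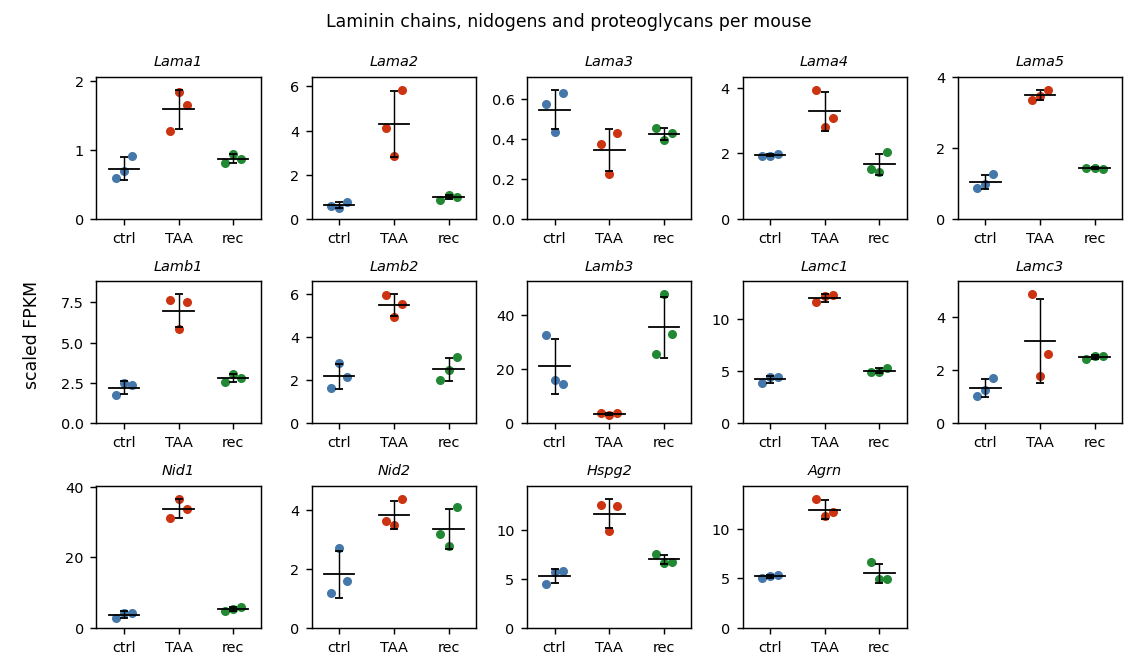
Scaled FPKM per mouse (y axis, from 0, with its own range in each panel) of 10 laminin chains, the nidogens and the proteoglycans in control (ctrl), TAA and recovery (rec) mice; points are mice, lines the mean and bars the SD of 3 mice. Nid1 rises from a mean of 3.74 to 33.8 and returns to 5.31, Nid2 and Lamc3 remain near their TAA level, and Lamb3 is the laminin chain called lower in the TAA group.

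Lamb3 moved opposite to the 7 laminin chains that rose. It was at 32.8, 16.1 and 14.5 scaled FPKM in control, 3.76, 3.18 and 3.65 in TAA and 25.6, 47.9 and 33.2 in recovery mice. Every TAA mouse lay below every other mouse, and the control and recovery mice varied widely and overlapped. The log2 fold change was -2.45 ± 0.29 (adjusted p = 3.18e-04) in the TAA group and 3.25 ± 0.21 (adjusted p = 2.33e-05) after recovery. With 21.1 ± 10.1 (SD, n = 3) in control and 35.6 ± 11.3 in recovery mice, Lamb3 was listed above the other laminin chains shown by a wide margin in both.

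The table lists Lamb3 at chr1:193145809-193343878 (mm10, plus strand), which is longer than the locus in GENCODE M21, chr1:193207699-193343878, whereas the other 39 members have identical loci in both. The listed locus overlaps 10 other annotated genes. Among them, on the minus strand, are Hsd11b1 (chr1:193221634-193264075), the enzyme that regenerates active glucocorticoid, and G0s2 (chr1:193272161-193273217), an inhibitor of triglyceride lipase, both well expressed in liver. Neither shares exon bases with Lamb3 in M21, and the exon set of the longer listed model is not given in the sources used here. Hsd11b1 was at 156, 172 and 193 scaled FPKM in control, 46.5, 34.4 and 39.6 in TAA and 163, 172 and 187 in recovery mice. G0s2 was at 116, 94.7 and 56.6 in control, 26.5, 21.6 and 30.0 in TAA and 86.3, 211 and 164 in recovery mice. As with Lamb3, both were lowest in the 3 TAA mice, and G0s2 ranked the 3 control mice and the 3 recovery mice in the same order as Lamb3. Hsd11b1 ranked the control mice in the reverse order and the recovery mice in another order than Lamb3. The strand setting of the counting is not given in the sources used here, and the part of these genes in the Lamb3 values was not tested.

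**Figure D3:**
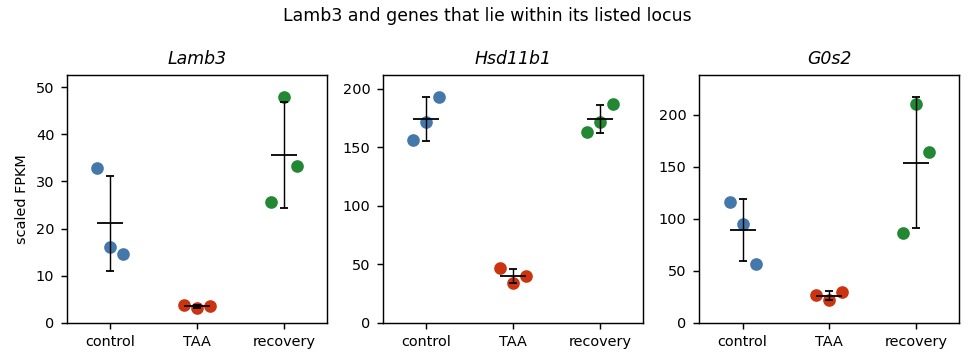
Scaled FPKM (y axis, from 0, own range per panel) of Lamb3, Hsd11b1 and G0s2 in control, TAA and recovery mice; points are mice, and black marks with bars the mean and SD of 3 mice. All 3 genes are lowest in the TAA group, with means of 3.53, 40.2 and 26.0.

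Because a laminin trimer takes 1 chain of each class, the share of each chain in the summed scaled FPKM of the alpha or the beta class was computed per mouse, a quantity that library scaling does not alter. In the alpha class, Lama4 held the largest share in control mice, at 42.3%, 42.4% and 35.7%, and Lama2 held 13.0%, 11.1% and 13.7%. In TAA mice Lama2 held 31.4%, 25.5% and 39.9% and Lama4 30.1%, 25.1% and 21.1%. The control and TAA ranges of both shares were apart, with Lama2 higher and Lama4 lower in the TAA group. Recovery mice had 17.0%, 20.3% and 17.6% of Lama2, between the other groups. The share of Lama3 was 11.2% ± 1.53 (SD, n = 3) in control, 2.59% ± 0.507 in TAA and 7.94% ± 0.823 in recovery mice.

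In the beta class, Lamb3 as listed held 80.7% ± 8.64 in control, 22.1% ± 0.594 in TAA and 86.5% ± 2.66 in recovery mice. With Lamb3 left out, a choice made after its locus was seen, Lamb1 and Lamb2 were near parity, Lamb1 holding 50.4% in control, 55.9% in TAA and 53.0% in recovery mice. The summed beta chains were then 4.40, 12.5 and 5.32 scaled FPKM in the control, TAA and recovery groups, against 25.5, 16.0 and 40.9 with Lamb3. The summed alpha chains were 4.87, 13.0 and 5.38.

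**Figure D4:**
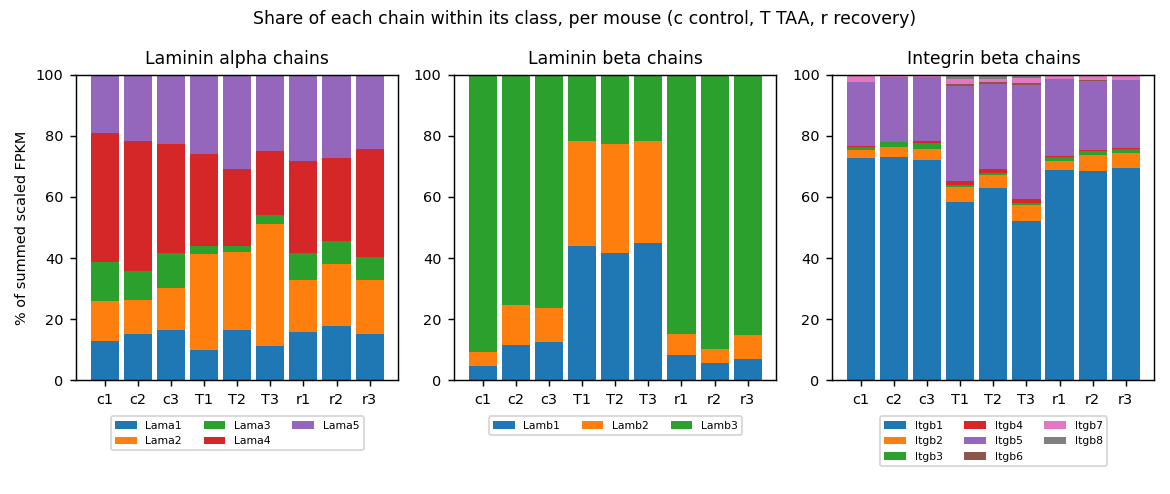
Share in percent (y axis) of each chain in the summed scaled FPKM of the laminin alpha and beta chains and of the integrin beta chains, 1 stacked bar per mouse (c control, T TAA, r recovery). Lama2 takes a larger share in the TAA mice, Lamb3 falls from 80.7% to 22.1%, and Itgb1 holds most of the integrin beta signal throughout.

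The promoter windows of 4 members are shown to set the nidogen with the largest fold change beside integrin chains that differ in level and in response. RefSeq promoter windows (GRCm38.p6, 250 bases before the start) were matched for 26 of the 40 members, as 30 windows. For each gene printed, the window was trimmed to the bases outside its GENCODE M21 exons and runs 5′ to 3′ on the gene's strand. Capitals mark matches to GGGCGG (a GC box), GGAATG (the core of the TEAD motif) or TGANTCA (the AP-1 motif), searched on both strands.
Nid1, chr13:13437352-13437550, plus strand: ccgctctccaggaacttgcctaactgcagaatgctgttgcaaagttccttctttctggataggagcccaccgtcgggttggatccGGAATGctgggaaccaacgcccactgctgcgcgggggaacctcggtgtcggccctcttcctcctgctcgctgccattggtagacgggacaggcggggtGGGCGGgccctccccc
Itgb1, chr8:128685404-128685653, plus strand: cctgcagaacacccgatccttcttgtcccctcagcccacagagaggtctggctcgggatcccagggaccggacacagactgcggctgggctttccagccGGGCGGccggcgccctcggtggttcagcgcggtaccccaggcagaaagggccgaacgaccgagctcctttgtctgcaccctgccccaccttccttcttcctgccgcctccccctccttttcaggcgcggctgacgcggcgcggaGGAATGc
Itgax, chr7:128129300-128129546, plus strand: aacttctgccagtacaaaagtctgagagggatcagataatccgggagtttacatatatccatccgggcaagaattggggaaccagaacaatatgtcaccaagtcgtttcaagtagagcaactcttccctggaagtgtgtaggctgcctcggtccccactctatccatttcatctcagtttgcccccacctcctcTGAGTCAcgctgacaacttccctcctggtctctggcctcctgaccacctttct
Itgb6, chr2:60722644-60722853, minus strand: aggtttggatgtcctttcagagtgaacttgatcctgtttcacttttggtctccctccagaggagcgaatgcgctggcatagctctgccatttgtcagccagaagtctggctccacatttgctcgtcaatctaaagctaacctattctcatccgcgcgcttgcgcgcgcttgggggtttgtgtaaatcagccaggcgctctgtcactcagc

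The windows of Nid1, which rose and fell, and of Itgb1, which was not called, both hold the first 2 of these motifs. GGGCGG was found in 13 of the 30 member windows and in 32.742% of all 32851 windows, and GGAATG in 4 of 30 and in 12.642%. TGANTCA was found in 1 of 30, that of Itgax, and in 6.749% of all windows, and the window of Itgb6 held none of these motifs. TATAAA was found in 0 of 30 and in 12.368% of all windows, and AGAGGAAGT, a site of the myeloid factor PU.1, in those of Itga11 and Itgav and in 0.798% of all. These matches describe the letters and do not show binding.

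Of the laminin-binding integrin chains, 3 of 4 rose in the TAA group and the same 3, Itga3, Itga6 and Itgb4, fell after recovery. Of all tested genes, 17.0% rose and 14.3% fell in these comparisons. Itga6, which pairs with beta1 or with the hemidesmosomal beta4, was at 1.05, 1.01 and 0.824 scaled FPKM in control, 5.26, 6.29 and 5.48 in TAA and 1.59, 1.16 and 1.12 in recovery mice. TAA mice were several-fold above all others. Its log2 fold change was 2.45 ± 0.14 (adjusted p = 1.56e-05), and -2.07 ± 0.16 (adjusted p = 5.17e-05) after recovery. Itga3, whose product binds the laminins of epithelia, was at 2.03, 2.22 and 2.14 in control, 6.37, 6.88 and 7.65 in TAA and 1.72, 1.96 and 2.05 in recovery mice. Control and recovery mice overlapped. Itga3 rose by 1.66 ± 0.12 (adjusted p = 3.20e-05) and fell by 1.81 ± 0.13 (adjusted p = 3.07e-05).

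Itgb4 was at 0.145, 0.0447 and 0.573 in control, 1.68, 1.20 and 1.59 in TAA and 0.473, 0.247 and 0.267 in recovery mice. Despite the spread among control mice, no TAA mouse overlapped another group. It rose by 2.45 ± 0.51 (adjusted p = 0.00509) and fell by 1.91 ± 0.25 (adjusted p = 4.98e-04). Itga7, a laminin receptor of muscle, had values of 2.15, 2.91 and 2.75 in control, 1.48, 1.28 and 2.03 in TAA and 2.67, 2.84 and 2.27 in recovery mice. Its log2 fold change of -0.68 ± 0.20 (adjusted p = 0.0225) was under the fold threshold, as was that of 0.68 ± 0.19 (adjusted p = 0.0181) after recovery, and both passed it under quantile normalization (-1.10 and 1.07). With FPKM as deposited they were -0.08 and 0.15 (adjusted p = 0.768 and 0.526). Without TAA 3, the library with muscle transcripts, they were -0.86 and 0.86. Itga7 shares 9 exon bases with the opposite-strand gene Mettl7b, which had means of 448, 163 and 403 in control, TAA and recovery mice. The part of Mettl7b in the Itga7 values was not tested.

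Cholangiocyte markers were higher in the same TAA mice. The cholangiocyte list (Krt7, Krt19, Epcam, Sox9, Cldn7, Cftr) summed to 2.09 to 3.44 scaled FPKM in control, 22.1 to 33.4 in TAA and 5.31 to 7.66 in recovery mice. Of its 6 genes, 6 rose in the TAA group, 5 fell after recovery and 1 was higher in recovery than in control mice, and none was at 0 in all libraries. Their part in the values of Itga3, Itga6, Itgb4 and Itgb6 was not tested.

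Collagen-binding alpha chains pair with beta1. Of 4, 2 rose in the TAA group, Itga2 and Itga11, where 17.0% of all tested genes rose. Itga2, a collagen and laminin receptor of platelets and epithelia, was at 0.0509, 0.125 and 0.107 scaled FPKM in control, 0.704, 0.798 and 0.706 in TAA and 0.298, 0.597 and 0.582 in recovery mice. The 3 groups did not overlap. Recovery 2 and 3 lay nearer to the TAA mice, and recovery 1 nearer to the control mice. Itga2 rose in the TAA group by 2.12 ± 0.23 on the log2 scale (adjusted p = 2.05e-04) and from TAA to recovery differed by -0.54 ± 0.25 (adjusted p = 0.11). It was the member called against the control group, at 1.58 ± 0.29 (adjusted p = 0.0472). That call was lost in 7 of 12 other settings, with adjusted p between 0.0116 and 1 over all alternatives that kept the gene, and when any of control 1, 2 or 3 (log2 fold changes of 1.41, 1.70 and 1.64) or recovery 2 or 3 (1.44 and 1.46) was left out.

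Itga11, a collagen receptor of fibroblasts, was at 0.0317, 0.00665 and 0.0278 in control, 0.272, 0.0955 and 0.245 in TAA and 0.0333, 0.0111 and 0.0658 in recovery mice. These are low levels, with the TAA mice above all others. Itga11 averaged 0.1078 FPKM as deposited, so it passed the filter of 0.1 only through the TAA mice. Its scaled means were 0.022 in control and 0.0367 in recovery mice. It rose by 1.27 ± 0.32 (adjusted p = 0.011) and fell by 1.12 ± 0.33 (adjusted p = 0.0244), and the fall was lost without TAA 1, TAA 3, recovery 1 or recovery 2 (log2 fold changes of -0.94, -1.0, -1.11 and -0.98). Both calls were lost under quantile normalization (0.27 and -0.33, adjusted p = 0.451 and 0.39) and, by size, with a pseudocount of 1 (0.23 and -0.21). Itga1, whose gene lies 21 kb from Itga2 on chromosome 13, was at 6.82 to 7.40 in control, 7.49 to 8.22 in TAA and 6.74 to 8.33 in recovery mice, a difference of 0.15 ± 0.09 in the TAA group (adjusted p = 0.203). Itga10, a cartilage collagen receptor, was at 0.154 to 0.318 in all mice, and its difference of -0.10 in the TAA group was positive, at 0.34, with FPKM as deposited. Quantile normalization called Itga10 lower in the TAA group (-1.04, adjusted p = 0.00745) and higher after recovery (1.04, adjusted p = 0.00432). The gene shares 33.53% of its exon bases with Gm42957.

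Among the chains of integrins that bind RGD-type and related ligands, 3 of 9 rose and the same 3, Itga8, Itgb6 and Itgb8, fell after recovery. The shares of all tested genes were 17.0% and 14.3%. Itga8, the nephronectin receptor chain known from mesangial cells and smooth muscle, was at 1.20, 1.46 and 1.74 scaled FPKM in control, 18.0, 8.42 and 12.3 in TAA and 1.59, 2.42 and 3.08 in recovery mice. The TAA mice differed by more than 2-fold among themselves, and the lowest was still above the highest recovery mouse. The log2 fold change was 3.0 ± 0.27 (adjusted p = 9.34e-05), and -2.38 ± 0.31 (adjusted p = 5.35e-04) after recovery. Its share of the summed alpha chains was 3.21% ± 0.391 (SD, n = 3) in control, 16.0% ± 4.65 in TAA and 5.16% ± 1.81 in recovery mice.

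The stellate cell and myofibroblast list (Lrat, Reln, Des, Pdgfrb, Dcn, Acta2, Tagln, Col1a1) summed to 73.9 to 125 scaled FPKM in control, 215 to 276 in TAA and 102 to 137 in recovery mice. Of its 8 genes, 6 rose in the TAA group and 5 fell after recovery, with none at 0 in all libraries. The smooth muscle list of 4 genes summed to 1.51 to 3.24 in control, 3.64 to 6.15 in TAA and 1.53 to 2.95 in recovery mice, and 1 of its genes rose. Their part in the values of Itga8, Itga11, Nid1, Lama2 and the other chains was not tested. The endothelial list of 7 genes summed to 52.1 to 96.7, 57.9 to 77.7 and 89.7 to 102, and 0 of 7 were called in any of the comparisons.

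Itgb6, the epithelial beta chain of the integrin that activates latent TGF-beta, was listed at 0.0094, 0 and 0.0254 scaled FPKM in control, 1.01, 0.806 and 0.929 in TAA and 0.130, 0.310 and 0.131 in recovery mice. It was close to undetected in control mice, and the 3 groups did not overlap. Its scaled means were 0.0116 in control and 0.19 in recovery mice, so it passed the filter of 0.1 largely through the TAA mice. The log2 fold change was 3.19 ± 0.21 (adjusted p = 2.58e-05) in the TAA group, a value set in part by the 0.1 added to each FPKM, since it ranged from 0.92 to 5.60 over the alternatives. It was -1.86 ± 0.27 (adjusted p = 9.28e-04) after recovery. Between recovery and control mice it was 1.33 ± 0.27 (adjusted p = 0.0588), and this passed with all 9 libraries fitted together (adjusted p = 0.0224, within 0.0224 to 1 over the alternatives). Itgb8, which also pairs with alphav and activates latent TGF-beta, was at 0.388, 0.209 and 0.369 in control, 1.96, 1.57 and 1.18 in TAA and 0.480, 0.551 and 0.444 in recovery mice. Again the groups were apart, and recovery mice were near the control level. Itgb8 rose by 1.99 ± 0.26 (adjusted p = 5.56e-04) and fell by 1.47 ± 0.21 (adjusted p = 8.44e-04). Its fall was under the fold threshold with quantile normalization (-0.93), as were both changes with a pseudocount of 1 (0.95 and -0.77).

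Itgav, the alpha chain that both pair with, was not called in either comparison. It was at 11.5, 13.1 and 14.7 in control, 12.7, 12.1 and 13.8 in TAA and 11.6, 7.04 and 6.32 in recovery mice. Control and TAA mice overlapped, and its log2 fold change of -0.02 ± 0.11 (adjusted p = 0.908) was positive with FPKM as deposited (0.62), quantile normalization (0.20) or upper-quartile scaling (0.12). After recovery its difference of -0.68 ± 0.21 (adjusted p = 0.0294), with every recovery mouse below the TAA mice, was under the fold threshold, and with FPKM as deposited it was -1.23 (adjusted p = 0.00148). Itgb5, the vitronectin receptor beta chain, was at 20.7, 21.8 and 20.7 in control, 37.6, 31.8 and 43.8 in TAA and 22.7, 20.1 and 21.8 in recovery mice. TAA mice lay above the rest, but the difference of 0.83 ± 0.12 (adjusted p = 9.92e-04) was under the fold threshold, as was that of -0.80 ± 0.13 (adjusted p = 0.00139) after recovery. Both passed it under quantile normalization (1.26 and -1.18) and with FPKM as deposited (1.46 and -1.36). In share of the integrin beta chains, Itgb5 held 21.1% ± 0.206 in control, 32.0% ± 4.64 in TAA and 23.3% ± 1.52 in recovery mice.

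Itga5, the fibronectin receptor alpha chain, was at 6.26, 6.97 and 6.07 in control, 8.34, 7.95 and 8.10 in TAA and 10.7, 9.05 and 8.31 in recovery mice. The TAA mice were above the control mice, by a log2 difference of 0.33 ± 0.1 (adjusted p = 0.0205) that was under the fold threshold. The recovery mice were above the control mice, by a log2 difference of 0.53 ± 0.12 (adjusted p = 0.0691) that did not pass the test, and overlapped the TAA mice. From TAA to recovery the difference was 0.19 (adjusted p = 0.196), and it was -0.36 (adjusted p = 0.0221) with FPKM as deposited. Itga9, a receptor for tenascin-C and osteopontin, was at 4.65 to 6.69 in control, 8.16 to 11.6 in TAA and 5.01 to 5.40 in recovery mice. Its differences of 0.76 and -0.90 were under the fold threshold, the second reaching -1.02 without TAA 2. With FPKM as deposited they were 1.39 and -1.45, and both passed. Itga2b and Itgb3, the chains of the platelet fibrinogen receptor, had log2 fold changes of -0.03 and -0.55 in the TAA group (adjusted p = 0.899 and 0.132), which were 0.55 and 0.03 with FPKM as deposited. Under quantile normalization they were -0.74 and -1.21 (adjusted p = 0.0228 and 0.00636), the second a call, and without control 1 that of Itgb3 was -0.87 (adjusted p = 0.00664).

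Itgb1, the beta chain shared by most matrix-binding integrins, was the highest member in each group. It was at 71.4, 74.6 and 71.4 scaled FPKM in control, 70.9, 71.5 and 61.6 in TAA and 62.4, 60.8 and 68.0 in recovery mice. Control and TAA mice overlapped. The log2 fold change was -0.09 ± 0.09 (adjusted p = 0.395), and it depended on the scaling. It was positive with FPKM as deposited (0.54, adjusted p = 6.26e-04), quantile normalization (0.54, adjusted p = 0.00125) or upper-quartile scaling (0.04). From TAA to recovery it was -0.09 ± 0.10 (adjusted p = 0.453). With FPKM as deposited it was then -0.65 (adjusted p = 4.06e-04), and with quantile normalization -0.66 (adjusted p = 6.74e-04). All of these were under the fold threshold. The integrin alpha chains together summed to 45.5 ± 3.45 scaled FPKM (SD, n = 3) in control, 79.5 ± 7.42 in TAA and 46.2 ± 1.74 in recovery mice. The share of Itgb1 among the beta chains was 72.6% ± 0.470, 57.8% ± 5.41 and 68.8% ± 0.453.

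Of the 7 leukocyte integrin chains tested, 4 rose in the TAA group, Itga4, Itgae, Itgam and Itgax, and 3 fell after recovery. The shares of all tested genes were 17.0% and 14.3%. Itgax (CD11c), an alpha chain of dendritic cells and macrophages, was at 0.811, 0.295 and 0.151 scaled FPKM in control, 3.03, 2.15 and 2.97 in TAA and 0.484, 0.796 and 0.724 in recovery mice. TAA mice lay above the overlapping control and recovery mice. It rose by 2.64 ± 0.44 (adjusted p = 0.00173) and fell by 1.88 ± 0.22 (adjusted p = 3.08e-04). Itgam (CD11b), the alpha chain of neutrophils and monocytes, was at 0.973, 0.326 and 0.126 in control, 1.81, 1.43 and 2.22 in TAA and 0.106, 0.285 and 0.121 in recovery mice. Control 1 was the highest non-TAA mouse for both genes. Itgam rose by 2.01 ± 0.52 (adjusted p = 0.0125), which did not pass without TAA 3 (1.86, adjusted p = 0.0528), and fell by 2.86 ± 0.29 (adjusted p = 1.59e-04). Its rise was also lost under quantile normalization (1.38, adjusted p = 0.0506) and, by size, with a pseudocount of 1 (0.97).

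Itgam shares 68.67% of its exon bases with the same-strand gene Gm49368, which was at 0 in all 3 TAA mice and at 0.0601 to 0.583 in control mice. Reads in the shared exons cannot be assigned to 1 of these genes, so the level of Itgam is uncertain. Itgam, Itgax and Itgad lie in a row on chromosome 7, with gaps of 11.1 and 3.7 kb.

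Itga4, the VCAM-1 receptor chain of lymphocytes and monocytes, was at 0.909, 0.892 and 0.891 in control, 2.23, 2.46 and 2.36 in TAA and 0.761, 1.34 and 1.23 in recovery mice. Control mice were nearly equal, and the TAA mice lay above all others. It rose by 1.3 ± 0.13 (adjusted p = 1.56e-04) and fell by 1.05 ± 0.21 (adjusted p = 0.00423), or 0.82 without recovery 1. Both calls were lost, by size, under quantile normalization (0.84 and -0.71) and with a pseudocount of 1 (0.82 and -0.68). Itgae (CD103), the E-cadherin receptor chain of epithelial lymphocytes, was at 0.0346, 0.0965 and 0.00907 in control, 0.251, 0.178 and 0.314 in TAA and 0.0663, 0.158 and 0.127 in recovery mice, and rose by 1.27 ± 0.30 (adjusted p = 0.00946) at levels close to the 0.1 added. That call was lost under quantile normalization (0.28, adjusted p = 0.436) and, by size, with a pseudocount of 1 (0.25). The scaled means of Itgae were 0.0467 in control and 0.117 in recovery mice, so it passed the filter of 0.1 largely through the TAA mice. Itgb2, the beta chain of CD11a, CD11b and CD11c, and Itgal, which encodes CD11a, differed by 0.80 ± 0.15 and 0.67 ± 0.24 (adjusted p = 0.00301 and 0.0446), both under the fold threshold. With FPKM as deposited these differences were 1.42 and 1.29 (adjusted p = 1.89e-04 and 0.0025), and both passed. Itgb7, the partner of Itga4 and Itgae, was at 1.97, 0.702 and 0.604 in control mice, and its difference of 0.62 ± 0.43 (adjusted p = 0.263) reached 1.11 (adjusted p = 0.0186) without control 1.

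Leukocyte marker lists did not all move as these chains did. The neutrophil list (S100a8, S100a9, Csf3r, Cxcr2, Ly6g, Mmp8) summed to 1.01 to 4.12 in control, 15.8 to 21.4 in TAA and 3.06 to 5.07 in recovery mice, with all 5 tested genes rising in the TAA group and falling after recovery, and Ly6g at 0 in every control and recovery mouse. The dendritic cell list summed to 3.71 to 4.31, 4.75 to 4.90 and 3.79 to 4.46, with 2 of 4 rising in the TAA group and 2 of 4 falling after recovery. In the macrophage list, which summed to 50.0 to 119, 103 to 116 and 134 to 186, 2 of 7 rose and 1 rose after recovery. The T and NK cell list summed to 1.28 to 2.54, 3.02 to 3.64 and 1.17 to 3.10, with 1 of 7 rising, and the B cell list to 0.714 to 2.43, 1.68 to 3.21 and 0.794 to 2.13, with 0 of 4. The platelet list summed to 0.860 to 1.82, 2.38 to 4.01 and 0.893 to 1.69, with 1 of 3 rising in the TAA group and 1 of 3 falling after recovery. Their part in the leukocyte and platelet chains was not tested.

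**Figure D5:**
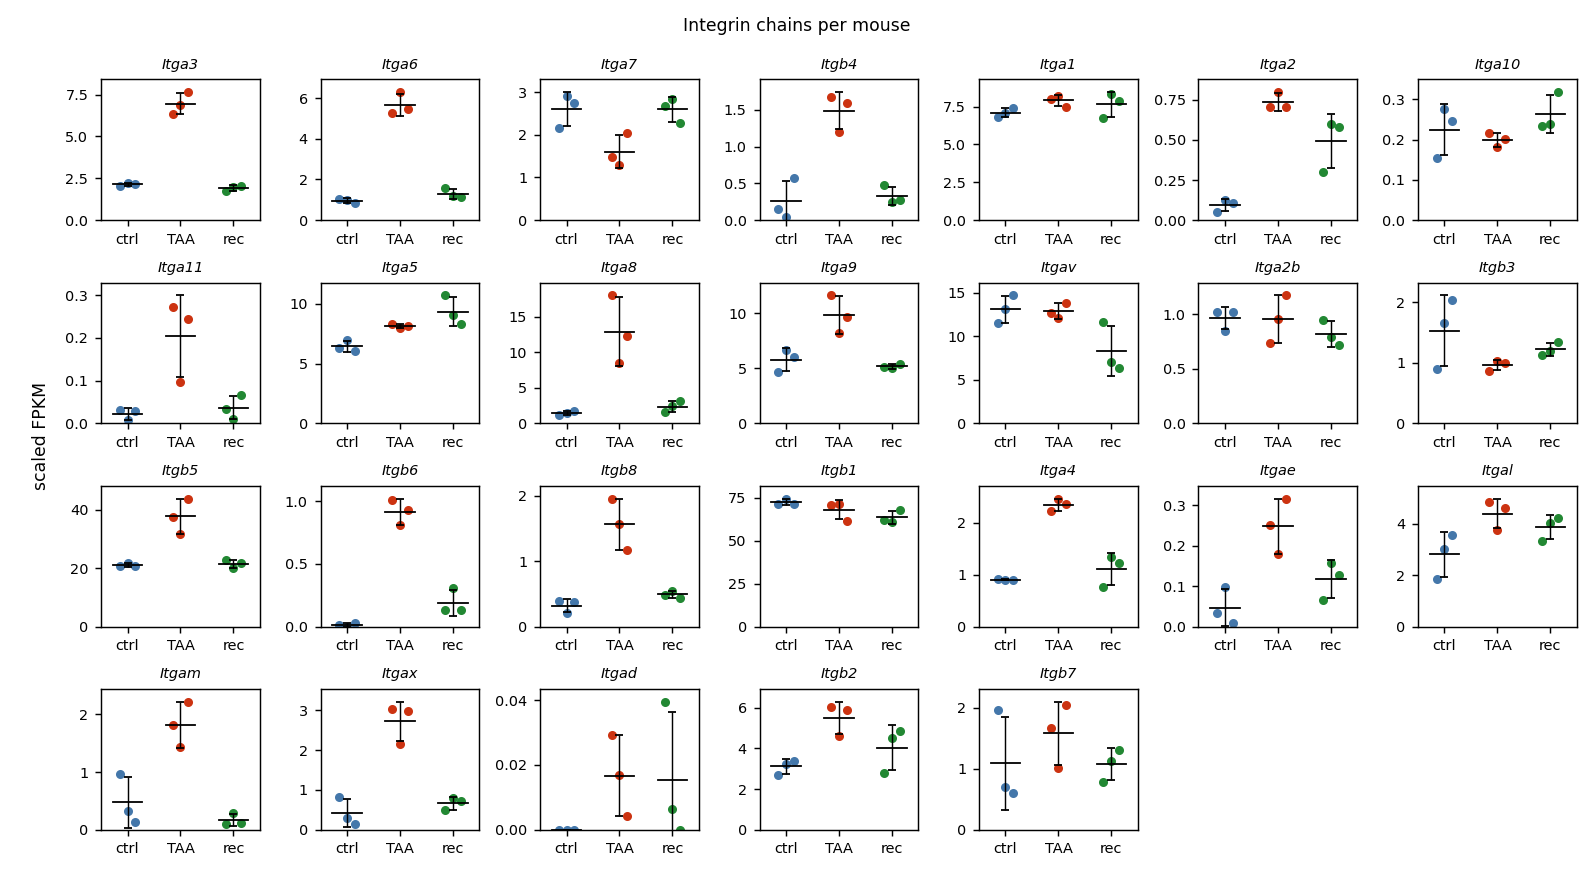
Scaled FPKM per mouse (y axis, from 0, with its own range in each panel) of the 26 integrin chains in control (ctrl), TAA and recovery (rec) mice, ordered by role; points are mice, lines the mean and bars the SD of 3 mice. Itga6, Itga8, Itgb6 and Itgax are highest in the TAA mice, Itga2 stays raised in recovery mice, and Itgb1 overlaps between control and TAA mice.

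The extent of the return was described for the 23 members that were higher in the TAA group, as the percentage of the difference between TAA and control means that was left in the recovery group. Its median was 10.8%, with medians of 9.29%, 16.2% and 14.1% in the 3 recovery mice taken singly. The range was -22.6% (Itgam) to 76.2% (Nid2). Without control 1, which had the highest control value of Itgam, that gene was at -3.47% and the lowest member was Itga3 at -5.68%. Without TAA 1, Lamc3 was the highest, at 134%. Leaving out mice here was chosen after seeing the data. More than 30% was left for 4 members, Nid2, Lamc3 (66.6%), Itga2 (62.0%) and Itgae (34.9%). Less than 5% was left for 3, among them Itga3 (-4.56%) and Agrn (4.09%).

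Genes around these families were taken from 6 lists. Of all tested genes, 17.0% were called higher and 8.02% lower in the TAA group. After recovery, 14.3% were called lower and 7.12% higher. Of the 8 basement membrane collagens, 7 rose in TAA mice and 1 fell, and after recovery 6 were lower and 1 higher. Col4a5, a collagen IV chain, was at 0.383, 0.201 and 0.317 scaled FPKM in control, 6.43, 4.24 and 5.13 in TAA and 0.414, 0.443 and 0.490 in recovery mice. Col18a1, the precursor of endostatin and a hepatocyte product, went the other way, from 208 ± 0.545 (SD, n = 3) to 94.4 ± 9.25 and back to 205 ± 26.6. Of 19 other basement membrane proteins, 10 rose and 2 fell in the TAA group, and 11 fell and 2 rose after recovery. Tinag, a tubulointerstitial nephritis antigen that binds laminin and collagen IV, was listed at 0 in all control mice, at 5.74, 5.56 and 4.32 in TAA and at 0.0644, 0.0323 and 0.0317 in recovery mice. Tinag passed the filter on mean FPKM only through the TAA mice. The list also holds papilin (Papln), an extracellular matrix glycoprotein, which fell by 1.33 ± 0.32 (adjusted p = 9.22e-03).

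Among 10 tested receptors for laminin and collagen other than integrins, 4 rose and 2 fell in the TAA group, where 17.0% and 8.02% of all tested genes did. The collagen receptor kinase Ddr1 rose by 4.05 ± 0.15 (adjusted p = 2.97e-06) and fell by 3.06 ± 0.19 (adjusted p = 1.92e-05) after recovery, while the syndecan Sdc4 fell by 1.31 ± 0.08 (adjusted p = 1.94e-05) in the TAA group. After recovery 3 of the 10 fell and 1, Sdc2, rose. Of 17 tested integrin ligands outside the basement membrane, 9 rose and 1 fell, and after recovery 9 fell and 1 rose. Col1a1, the main fibrillar collagen, rose by 5.91 ± 0.18 (adjusted p = 1.65e-06), and vitronectin (Vtn), a plasma protein made by hepatocytes and the ligand of alphavbeta5, fell by 1.07 ± 0.13 (adjusted p = 4.05e-04). E-cadherin (Cdh1), the ligand of CD103, was the single list gene called between recovery and control, at 4.50, 4.66 and 4.96 in control and 10.3, 9.30 and 10.4 in recovery mice (log2 fold change 1.07 ± 0.09, adjusted p = 9.02e-03).

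Of the 29 integrin-linked cytoplasmic proteins, 5 rose and 2 fell in TAA mice (median log2 fold change 0.23), where 17.0% and 8.02% of all tested genes were called, and after recovery 6 fell and 1 rose. The kinase Src rose by 2.84 ± 0.14 (adjusted p = 7.40e-06) and fell by 2.30 ± 0.15 (adjusted p = 2.25e-05). The last list held genes of TGF-beta and related proteins (Tgfb1, Tgfb2, Tgfb3, Ltbp1, Ltbp2, Ltbp3, Ltbp4, Lrrc32 and Nrros). Of these 9, 5 rose in the TAA group and 5 fell after recovery. The largest rise and fall were those of Ltbp2 (4.51 ± 0.32, adjusted p = 3.20e-05, and -3.38 ± 0.37, adjusted p = 2.40e-04). Between recovery and control mice 0 genes of the other 5 lists were called, where 0.582% of all tested genes were higher and 0.412% lower. In the order given, the 6 lists held 8, 19, 10, 17, 29 and 9 tested genes. Over all of them limma gave an unadjusted p under 0.05 for 24 genes on the higher side and 3 on the lower. Among all tested genes these shares were 11.3% and 11.7%.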

How the data were processed

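The authors filtered the reads, mapped them to mouse genome mm10 with HISAT2 2.2.1, counted them on genes with featureCounts 1.5.0-p3 (versions from the submitters' processing notes) and deposited FPKM values, 1 column per mouse. All columns were mapped to labelled mice. The authors tested counts with DESeq2, but since the deposited unit is FPKM, limma 3.58.1 in R 4.3.3 (lmFit, eBayes with a trend) was used on log2(FPKM + 0.1) after division by median-of-ratios factors over genes above 0 in all 9 libraries. These factors were 0.827 to 0.878 in control, 1.29 to 1.38 in TAA and 0.893 to 0.907 in recovery libraries. Each comparison used its 6 libraries, the genes whose FPKM averaged 0.1 or more, and Benjamini-Hochberg adjustment. Low FPKM values multiplied by gene length were whole fragments in 58.9% to 68.7% of cases (tolerance 0.08, 16.0% by chance), so depth is an estimate and exact counts were not recovered.

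Of the 41 genes of the rule 1 member, and 1 gene of the marker lists, are not reported here and were left out of counts and sums. Every other member was named, plus genes of the pathway and marker lists. The members and lists were chosen with earlier results of these data known. The labels name separate livers, and p-values measure the spread between them. Correlations of deviations between same-numbered mice, at -0.0705 to 0.125 over 9 pairs, did not pair the mice. Alternatives concerned pseudocount, filter, scaling, fit, threshold, block and mice left out. The test was also run on simulated data. Rises and falls were near balance there, so that run does not bear on the scaling of these data. Promoter windows came from RefSeq (GRCm38.p6). Python 3.11.15, pandas 2.3.3, numpy 2.4.6 and matplotlib 3.10.9 prepared tables and figures.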

Additional observations from a re-analysis of the deposited data

How the results depend on the processing

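Of 1959 member log2 fold changes recomputed under other settings, 1815 kept their direction and their side of the threshold, 73 no longer passed it, 33 newly passed it and 38 changed sign. The main count of 23 members higher in the TAA group was 13 with a pseudocount of 1 and 12 with treat (limma) at 2-fold, and 21 to 23 with a mouse left out. The count of 1 lower was 5 with quantile normalization, 2 by adjusted p alone and 1 with any mouse left out. After recovery, the count of 17 lower was 10 with a pseudocount of 1, 27 with FPKM as deposited and 8 with treat, and 14 to 19 with a mouse left out. The count of 1 higher was 4 with quantile normalization and 2 by adjusted p alone. Against control, the count of 1 higher was 2 with all 9 libraries fitted together, 0 with pseudocounts of 0.01 and 1, no filter, a mean FPKM of at least 1, eBayes without a trend, treat or the replicate block, and 0 to 1 with a mouse left out. With the replicate number as a block, the other counts were 23 and 1 in the TAA group and 17 and 1 after recovery, as without it. The cause was not tested, except that a pseudocount of 1 shrinks low genes and a stricter filter removes them by construction.

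Signs changed as follows. In the TAA group against control, FPKM as deposited gave Itga10 0.34, Itga2b 0.55, Itgav 0.62, Itgb1 0.54 and Itgb3 0.03, quantile normalization gave Itgav 0.20 and Itgb1 0.54, and upper-quartile scaling gave Itga2b 0.09, Itgav 0.12 and Itgb1 0.04. After recovery, FPKM as deposited gave Itga10 -0.12, Itga5 -0.36, Itgb3 -0.20 and Lama3 -0.17, and quantile normalization gave Itga2 0.18, Itga2b 0.43, Itgae 0.09 and Lamc3 0.03. Between recovery and control, quantile normalization gave Itga11 -0.06, and Itga7 was 0.00 with a pseudocount of 0.01, 0.07 as deposited and 0.02 with upper-quartile scaling. With a mouse left out, the ranges were -0.27 to 0.01 for Itga10, -0.18 to 0.12 for Itga2b and -0.11 to 0.07 for Itgav in the TAA group. They were -0.12 to 0.03 for Itga1 and -0.50 to 0.20 for Lamc3 after recovery. Against control they were -0.08 to 0.13 for Agrn, -0.13 to 0.09 for Itga7, -0.01 to 0.08 for Itgb5 and -0.16 to 0.62 for Itgb7. Without Lamb3, Lamb1 held 50.4%, 55.9% and 53.0% and Lamb2 49.6%, 44.1% and 47.0% of the beta chains in control, TAA and recovery mice. Depth was an estimate, so no counting intervals were computed for members near 0.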
